A study of Mus musculus with 6 samples.

Results

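Red cell formation was followed through 8 genes chosen by name: the transcription factors Gata1 and Klf1, the receptors Epor and Tfrc, the heme synthesis enzymes Alas2 and Fech, the globin chaperone gene Ahsp and the membrane anion exchanger Slc4a1. 7 of the 8 symbols were matched to an identifier among the 47729 genes in the table, and all 7 were among the 19308 genes tested. Ahsp could not be matched to an identifier and was not analysed here. The genes were taken by their symbols, with no threshold on a measured value, but earlier results of these data were known when they were chosen.

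Samples were the proximal ends of both tibiae of each mouse, pooled per mouse, from 3 Control and 3 LS1 mice aged 14 days. LS1 is 1 of the Longshanks lines, which were bred for long tibiae relative to body mass, and the Control line (labelled ICR) was bred at random from the same outbred stock. The labels name no treatment and no engineered allele in either line. The dissected piece held growth plate, metaphysis, articular cartilage and the secondary ossification center, and the labels list bone, cartilage and marrow, so blood-forming marrow was sequenced together with the skeleton. The mice of a line came from different families, and 1 selected line stands for the selection.

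Red cells arise in marrow from committed progenitors that pass through a series of dividing erythroblasts, fill with hemoglobin and expel the nucleus. GATA1 starts this program and KLF1 carries it through to globin, membrane and heme genes, while erythropoietin, read by its receptor EPOR, keeps the early cells alive. Hemoglobin needs iron, which enters bound to transferrin through the receptor encoded by Tfrc, and heme, whose first and last enzymes are encoded by Alas2 and Fech. Iron also acts on some of these messages, through hairpins called iron-responsive elements that iron regulatory proteins grip when iron is scarce.

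The sequences before the start sites are shown as background to the regulators Gata1 and Klf1. Whether their letters bear on the levels or the correlations of the genes was not tested. RefSeq windows on GRCm38.p6, each of 250 bases before to 50 after a start site, were used for 5 of the genes. No window was found for Slc4a1, and Fech was left out of this search. The bases before the first annotated start inside each window are printed from 5′ to 3′ on the gene's strand. Capitals mark the GATA motif and the CACCC box, the letters bound by GATA and KLF factors, searched on both strands. The GATA motif was any of 4 words. They were AGATAA, the same word ending in G (AGATAG), the same word starting with T (TGATAA), and the word with both changes (TGATAG). The CACCC box was CCNCNCCC, which includes the stricter CCACACCC. The stretches were chr8:84901732-84901927 on the plus strand for Klf1, chr9:21963577-21963826 on the minus strand for Epor and chrX:150547167-150547374 on the plus strand for Alas2. Those of Gata1 and Tfrc were chrX:7967911-7968160 on the minus strand and chr16:32608646-32608895 on the plus strand. None of the stretches overlapped an annotated exon, and that of Gata1 lay in an intron of a longer Gata1 transcript.
Klf1: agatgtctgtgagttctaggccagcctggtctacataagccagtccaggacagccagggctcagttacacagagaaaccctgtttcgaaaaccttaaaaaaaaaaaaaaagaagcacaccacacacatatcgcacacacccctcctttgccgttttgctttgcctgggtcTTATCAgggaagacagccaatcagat
Epor: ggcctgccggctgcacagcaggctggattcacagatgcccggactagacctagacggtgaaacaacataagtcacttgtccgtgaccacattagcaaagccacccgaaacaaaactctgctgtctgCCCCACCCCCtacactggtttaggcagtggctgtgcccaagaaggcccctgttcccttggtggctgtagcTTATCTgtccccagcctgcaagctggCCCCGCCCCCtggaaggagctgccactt
Alas2: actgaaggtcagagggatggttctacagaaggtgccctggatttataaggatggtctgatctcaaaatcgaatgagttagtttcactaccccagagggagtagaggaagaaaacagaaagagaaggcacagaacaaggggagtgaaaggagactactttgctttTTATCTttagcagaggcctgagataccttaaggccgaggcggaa
Gata1: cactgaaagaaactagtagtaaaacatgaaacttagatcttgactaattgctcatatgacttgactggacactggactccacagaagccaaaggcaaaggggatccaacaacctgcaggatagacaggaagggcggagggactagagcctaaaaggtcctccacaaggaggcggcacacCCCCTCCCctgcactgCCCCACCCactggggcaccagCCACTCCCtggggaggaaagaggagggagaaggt
Tfrc: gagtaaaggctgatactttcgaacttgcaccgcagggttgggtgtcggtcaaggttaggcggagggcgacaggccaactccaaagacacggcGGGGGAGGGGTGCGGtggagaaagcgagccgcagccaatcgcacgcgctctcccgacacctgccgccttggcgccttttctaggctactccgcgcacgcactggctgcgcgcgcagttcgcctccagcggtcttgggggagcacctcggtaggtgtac

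A GATA motif was found in the windows of 3 of the 5 genes, and 29.8% of all 32851 promoter windows held one. It lay at position -80 from the RefSeq start in Klf1, at -54 in Epor and at -86 in Alas2, in each case read on the opposite strand, as TTATCA in Klf1 and as TTATCT in Epor and Alas2. The windows of Gata1 and Tfrc did not hold these letters. The CACCC box CCNCNCCC was found in the windows of Gata1, Epor, Tfrc and Alas2, with the Alas2 matches lying after the first annotated start and so not printed, and 49.5% of all windows held it. The stricter CCACACCC was in none of the 5 windows and in 3.56% of all windows. The E-box CANNTG, the letters bound by TAL1 with its partners, was found in all windows but that of Alas2, against 72.3% of all windows, and its narrower form CAGNTG, which overlaps it, in those of Klf1, Epor and Tfrc, against 51.4%. These matches describe the letters only.

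The messages of Alas2 and Tfrc are the members under iron control, and their hairpins are shown for that reason. A search of GENCODE M21 transcripts for a C, 5 paired bases, the loop CAGTG followed by A, C or T, and 5 more paired bases (G with T allowed) found 1 element in the 5′ UTR of Alas2 and 4 in the 3′ UTR of Tfrc. The Alas2 element was split between 2 exons, from chrX:150547458 to chrX:150552149, and the Tfrc elements lay at chr16:32631219-32631247, chr16:32631598-32631626, chr16:32631663-32631691 and chr16:32631710-32631738, all on the plus strand of GRCm38. The 6 bases of the loop are in capitals.
Alas2 element: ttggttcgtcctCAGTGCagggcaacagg
Tfrc element 1: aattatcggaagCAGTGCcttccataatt
Tfrc element 2: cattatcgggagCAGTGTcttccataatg
Tfrc element 3: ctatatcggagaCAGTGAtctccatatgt
Tfrc element 4: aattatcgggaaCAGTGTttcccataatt

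Of 21877 genes with a protein-coding transcript, 123 (0.562%) held such an element in a UTR. Among the 107 pathway genes searched, the others were the ferritin genes Fth1 and Ftl1 and the iron exporter gene Slc40a1, with 1 element each in the 5′ UTR.

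The libraries held 68803249 to 88745366 counted reads. Values are normalized counts, that is read counts divided by 1 size factor per library. Within groups, library pairs differed by far more than counting noise (chi-square per degree of freedom 42.9 to 164), so each was kept as a separate replicate. By Xist and the Y-linked genes, 2 Control libraries and 1 LS1 library came from females and the others from males. Markers of the skeletal tissue were present in every library, as the 10 chondrocyte markers summed to 2284520 to 2598690 normalized counts for Control but 2946230 to 3448140 for LS1.

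All 7 genes had a lower mean in LS1 than in Control, with a median log2 difference of -0.52 against 0.0054 over all genes tested, but none passed the test. At a Benjamini-Hochberg adjusted p under 0.05, limma called 0 of the 7 members and 14 genes in all (0.0725% of those tested). edgeR and voom also called 0 members, and DESeq2 called 0 members beside 459 genes in all (2.38%). At an unadjusted p under 0.05, limma passed 3 members, all lower in LS1, where 12.9% of all genes passed in either direction and 5.86% passed as lower. A lower mean in LS1 was found for 49.3% of all genes. The groups did not overlap for Gata1, Klf1 and Fech, and 8.94% of all genes were lower in LS1 without overlap. In such bulk tissue, fewer cells of a type and less RNA per cell cannot be told apart. With 3 mice a group, the smallest p that the exact two-sided permutation test can give is 0.1.

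**Figure D1:**
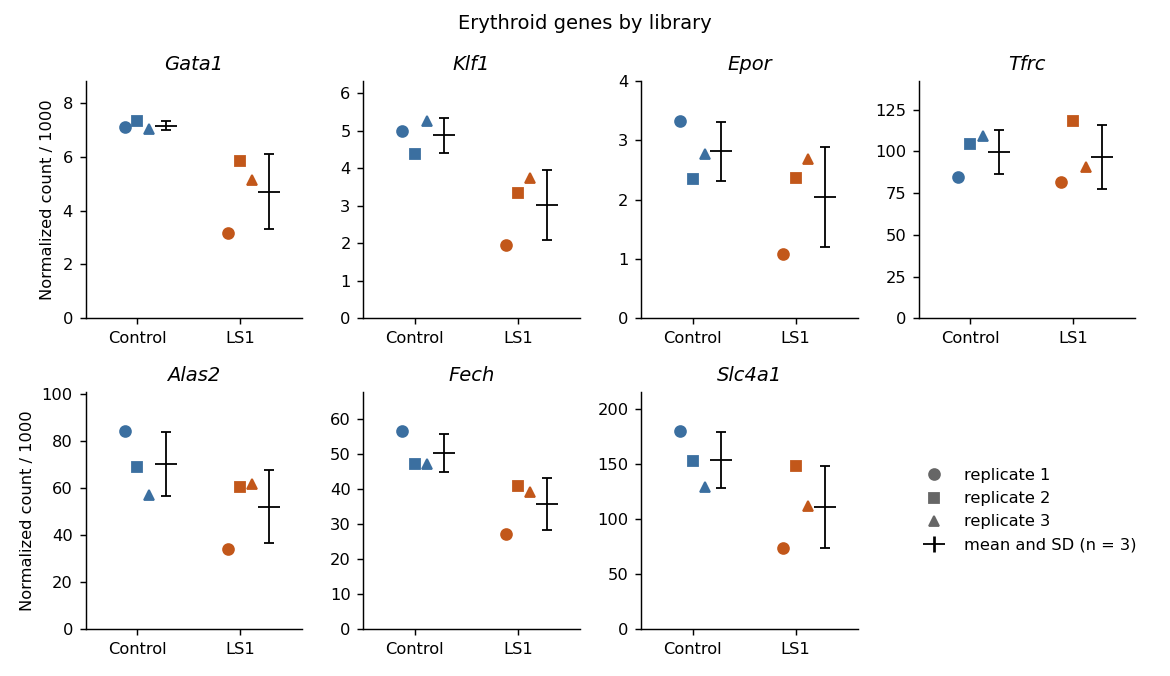
Normalized counts divided by 1000 (vertical axes, from 0) of the 7 erythroid genes in each of the 3 Control and 3 LS1 libraries, with symbols for the replicates and a bar for the mean and SD. The LS1 points lie below all Control points for Gata1, Klf1 and Fech, overlap them for Epor, Tfrc, Alas2 and Slc4a1, and the circle of LS1 replicate 1 is the lowest point in all 7 panels.

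Gata1 (ENSMUSG00000031162, chrX:7959260-7978071 on GRCm38, minus strand), the master regulator of the erythroid and megakaryocytic lineages, had normalized counts of 7103, 7340 and 7011 in Control mice and of 3165, 5830 and 5122 in LS1 mice. The Control libraries were close to each other and all LS1 libraries lay below them, with LS1 replicate 1 the lowest. The means were 7152 ± 170 in Control and 4706 ± 1380 in LS1 (SD, n = 3 each), and the log2 difference was -0.65 (SE 0.20, limma adjusted p = 0.254, 95% interval -1.09 to -0.21). The exact permutation p was 0.1, its smallest value for 3 mice a group. Without LS1 replicate 1 the difference was -0.39.

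Klf1 (ENSMUSG00000054191, chr8:84901928-84905291, plus strand), the activator that binds CACCC boxes of adult globin and other red cell genes, had the largest difference of the 7. Its normalized counts were 4997, 4367 and 5271 in Control and 1956, 3344 and 3752 in LS1. All LS1 libraries lay below all Control libraries, again with replicate 1 at the bottom. The means were 4879 ± 464 and 3018 ± 942 (SD, n = 3 each), and the log2 difference was -0.74 (SE 0.22, limma adjusted p = 0.247, 95% interval -1.23 to -0.26). Without LS1 replicate 3, the difference of Klf1 was -0.93 and it passed the threshold, with a limma adjusted p of 0.0496, in a fit that called 324 genes (1.68% of those tested). Without LS1 replicate 1 it was -0.46 with a limma adjusted p of 0.225.

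The other transcription factors and cofactors of the program were described with them. Of the 15 genes of that list, Gata1 and Klf1 included, 14 were lower in LS1, 7 of them at an unadjusted p under 0.05, and 0 passed the adjusted threshold with limma. The shares over all genes tested were 49.3% lower and 5.86% lower at that unadjusted p. Tal1, the E-box binding partner of GATA1, averaged 18655 ± 3470 normalized counts in Control and 11650 ± 2683 in LS1 (SD, n = 3 each), a log2 difference of -0.69 (SE 0.19, limma adjusted p = 0.229). DESeq2 called Tal1, with an adjusted p of 0.0404. Zfpm1, which encodes the GATA1 cofactor FOG1, had a log2 difference of -0.64 (SE 0.22, limma adjusted p = 0.285), also without overlap. At the other end of the list, Gata2, the GATA factor of earlier progenitors, averaged 743 ± 24.1 and 761 ± 82.6, a log2 difference of 0.029 (SE 0.17). The corepressor gene Cbfa2t3 differed by -0.16 (SE 0.16).

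Epor (ENSMUSG00000006235, chr9:21958897-21963506, minus strand), the erythropoietin receptor, had 3335, 2344 and 2773 normalized counts in Control and 1086, 2371 and 2687 in LS1. LS1 replicates 2 and 3 lay within the Control range, and only replicate 1 lay below it. The means were 2817 ± 497 and 2048 ± 848 (SD, n = 3 each), a log2 difference of -0.55 (SE 0.32, limma adjusted p = 0.507, 95% interval -1.28 to 0.18). The exact permutation p was 0.3. The difference was -0.14 without LS1 replicate 1. Epor was the member with the fewest reads, 1140 to 3305 per library.

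Of the 12 genes of erythropoietin and Kit signaling, 7 were lower and 5 higher in LS1, with a median log2 difference of -0.12, which was 0.023 without LS1 replicate 1. Bcl2l1, the survival gene that erythropoietin sustains in erythroblasts, averaged 10623 ± 714 in Control and 7337 ± 1864 in LS1 (SD, n = 3 each), a log2 difference of -0.56 (SE 0.18, limma adjusted p = 0.26) without overlap. Jak2, the kinase bound to the receptor, ran the other way, with 9302 ± 1053 in Control and 11636 ± 1043 in LS1 and a log2 difference of 0.33 (SE 0.14, limma adjusted p = 0.347), also without overlap. The feedback inhibitors Socs3 and Cish differed by -0.44 (SE 0.23) and 0.27 (SE 0.29), with overlapping groups. None of the 12 passed the adjusted threshold.

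Tfrc (ENSMUSG00000022797, chr16:32608920-32632794, plus strand), the transferrin receptor, was the member with the smallest difference. It had 84893, 104350 and 109511 normalized counts in Control and 81640, 118502 and 90401 in LS1. The LS1 libraries lay on both sides of the Control range, which held only replicate 3. The means were 99585 ± 12982 and 96848 ± 19258 (SD, n = 3 each), and the log2 difference was -0.050 (SE 0.17, limma adjusted p = 0.928, 95% interval -0.42 to 0.32). The interval holds differences of either sign, so it does not show that the lines were alike. The sign turned to 0.064 without LS1 replicate 1 and to 0.023 without Control replicate 3. The exact permutation p was 0.9.

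**Figure D2:**
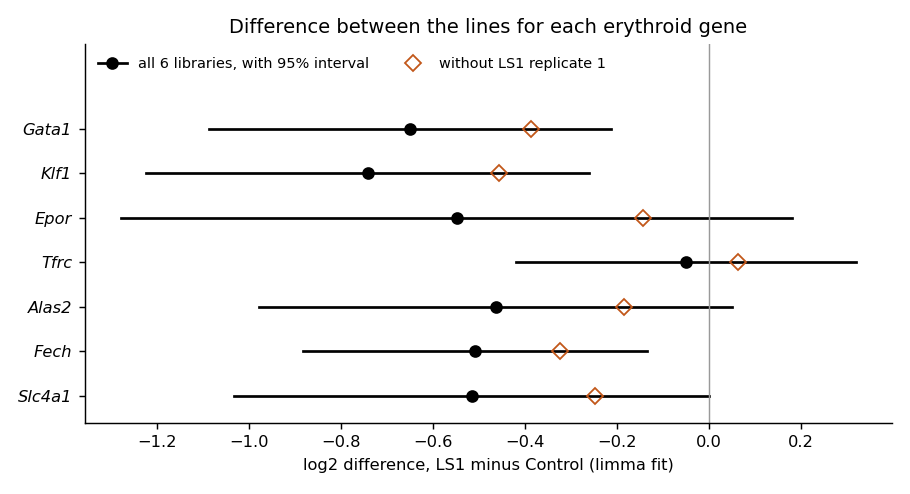
Log2 difference between LS1 and Control (horizontal axis) for each erythroid gene, as a black point with its 95% interval from the limma fit of all 6 libraries and an open diamond for the fit without LS1 replicate 1. The intervals of Gata1, Klf1 and Fech lie below 0 before adjustment over all genes, that of Tfrc is centered near 0, and every diamond lies to the right of its point.

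The other genes of iron uptake and handling were mixed, and none of the 14 passed the adjusted threshold. In LS1, 9 were lower and 5 higher, with a median log2 difference of -0.14, which was -0.040 without LS1 replicate 1. Slc25a37, the mitochondrial iron importer mitoferrin 1 that supplies erythroblast heme synthesis, averaged 52488 ± 12426 in Control and 32873 ± 4334 in LS1 (SD, n = 3 each), with a log2 difference of -0.66 (SE 0.18, limma adjusted p = 0.22) and no overlap, and DESeq2 called it with an adjusted p of 0.0256. Tfr2, the second transferrin receptor, differed by -0.51 (SE 0.25, limma adjusted p = 0.418), also without overlap. On the other side were Ireb2, which encodes an iron regulatory protein, at 0.22 (SE 0.14), and Fbxl5, which marks that protein for destruction, at 0.40 (SE 0.14, limma adjusted p = 0.298), both without overlap. The element-bearing genes differed by -0.28 (SE 0.16) for Fth1, -0.22 (SE 0.14) for Ftl1 and 0.15 (SE 0.14) for Slc40a1, all with overlapping groups.

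Alas2 (ENSMUSG00000025270, chrX:150547375-150570638, plus strand), the erythroid enzyme of the first and limiting step of heme synthesis, had 84238, 69149 and 57257 normalized counts in Control and 34130, 60293 and 61787 in LS1. The lowest Control library lay below LS1 replicates 2 and 3, so the groups overlapped, and replicate 1 of LS1 stood well below the rest. The means were 70215 ± 13522 and 52070 ± 15555 (SD, n = 3 each), with a log2 difference of -0.46 (SE 0.23, limma adjusted p = 0.434, 95% interval -0.98 to 0.051). The exact permutation p was 0.3, and the difference was -0.18 without LS1 replicate 1. Alas2 overlaps the antisense gene Apex2, whose 1419 to 1748 normalized counts per library were small beside it.

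Fech (ENSMUSG00000024588, chr18:64452914-64490251, minus strand), ferrochelatase, which inserts iron into protoporphyrin in the last step, had 56522, 47203 and 47196 normalized counts in Control and 27263, 40941 and 39195 in LS1. No LS1 library reached the lowest Control library. The means were 50307 ± 5383 and 35800 ± 7444 (SD, n = 3 each), with a log2 difference of -0.51 (SE 0.17, limma adjusted p = 0.279, 95% interval -0.88 to -0.13) and an exact permutation p of 0.1. Without LS1 replicate 1 the difference was -0.32.

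Between Alas2 and Fech, the 8 enzymes of the path showed 1 exception to a lower mean in LS1. The 7 enzymes other than Alad differed by -0.62 to -0.36 on the log2 scale, 4 of them without overlap and 3 at an unadjusted p under 0.05. Of all genes tested, 8.94% were lower without overlap and 5.86% were lower at that p. Uros, the fourth enzyme, averaged 5829 ± 301 and 3867 ± 952 (SD, n = 3 each), a log2 difference of -0.62 (SE 0.18, limma adjusted p = 0.237). Alad, the second enzyme, had 15833, 26577 and 25988 normalized counts in Control and 21043, 35839 and 35823 in LS1. Its groups overlapped, and its log2 difference was 0.43 (SE 0.26, limma adjusted p = 0.507).

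**Figure D3:**
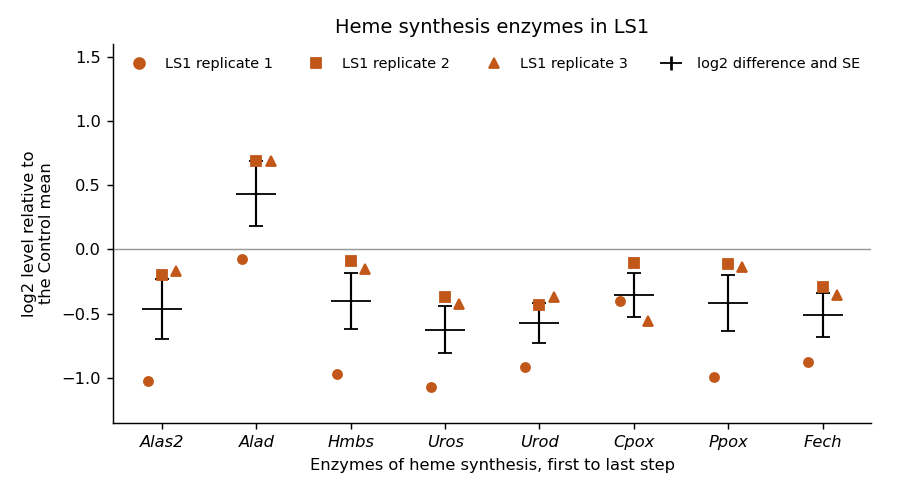
Log2 level in each LS1 library relative to the Control mean (orange symbols) and log2 difference with its SE (black bars) for the 8 enzymes of heme synthesis, placed from the first step to the last. The differences of 7 enzymes lie between -0.62 and -0.36, Alad lies at 0.43, and LS1 replicate 1 is the lowest LS1 symbol for every enzyme but Cpox.

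Over the whole list of 17 genes of heme synthesis and transport, 12 were lower in LS1, 7 of them at an unadjusted p under 0.05, and none passed the adjusted threshold. Their median was -0.40, and -0.18 without LS1 replicate 1. Over all genes tested, 49.3% were lower and 5.86% were lower at that unadjusted p. Abcb6, a porphyrin transporter, had the largest difference, -0.65 (SE 0.28, limma adjusted p = 0.364), at 382 ± 41.8 and 253 ± 85.6 normalized counts (SD, n = 3 each). The housekeeping enzyme Alas1, which starts heme synthesis outside the red cell line, differed by 0.12 (SE 0.17) and the heme exporter Flvcr1 by 0.31 (SE 0.16), both with overlapping groups. In the globin chaperone and cytosol list, from which Ahsp was missing, 8 of 9 genes were lower with a median of -0.26, and 6 of 9 with a median of -0.13 without LS1 replicate 1. Car2, a carbonic anhydrase of red cells that osteoclasts also express, averaged 103958 ± 14128 in Control and 61904 ± 2711 in LS1 (SD, n = 3 each) without overlap, a log2 difference of -0.74 (SE 0.14, limma adjusted p = 0.12). DESeq2 called Car2, with an adjusted p of 0.000478. Pklr, red cell pyruvate kinase, differed by -0.64 (SE 0.21), Nt5c3 by -0.092 (SE 0.18) and catalase (Cat) by 0.083 (SE 0.17).

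Slc4a1 (ENSMUSG00000006574, chr11:102348824-102366203, minus strand), band 3, the chloride and bicarbonate exchanger that anchors the membrane skeleton, had 179853, 152985 and 128854 normalized counts in Control and 73502, 147988 and 111416 in LS1. LS1 replicate 2 lay above the lowest Control library and the other LS1 libraries lay below the Control range. The means were 153897 ± 25512 and 110969 ± 37245 (SD, n = 3 each), with a log2 difference of -0.52 (SE 0.23, limma adjusted p = 0.387, 95% interval -1.03 to 0.0014) and an exact permutation p of 0.2. Without LS1 replicate 1 it was -0.25.

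The membrane and skeleton list was lower throughout. All 20 genes had a lower mean in LS1, 12 of them at an unadjusted p under 0.05 and 8 without overlap, with a median log2 difference of -0.54, and all 20 were still lower without LS1 replicate 1, with a median of -0.34. Among all genes tested, 49.3% were lower, 5.86% lower at that p and 8.94% lower without overlap. None passed the adjusted threshold with limma. Dmtn, the actin-bundling protein dematin, averaged 16255 ± 1394 in Control and 9327 ± 3004 in LS1 (SD, n = 3 each), a log2 difference of -0.85 (SE 0.22, limma adjusted p = 0.208), and DESeq2 called it with an adjusted p of 0.0186. The spectrin gene Sptb, whose product is part of the net under the membrane, differed by -0.59 (SE 0.21), and the ankyrin gene Ank1, which ties that net to band 3, by -0.64 (SE 0.22). The smallest differences were those of Cd47, at -0.048 (SE 0.13), and of Xk, at -0.21 (SE 0.17).

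Late maturation genes and globins also had lower means. All 10 genes of late maturation and enucleation were lower in LS1, with a median of -0.43, and 9 of 10 with a median of -0.22 without LS1 replicate 1. They ran from Trim58, a ubiquitin ligase of late erythroblasts, at -0.72 (SE 0.25), and the amino acid transporter Slc43a1, at -0.61 (SE 0.18), to the mitophagy receptor Bnip3l, at -0.020 (SE 0.14), and Mxi1, at -0.016 (SE 0.13). The globins held the only genes of all these lists that limma called. Hba-a2 differed by -1.42 (SE 0.19, limma adjusted p = 0.0291) and Hbb-bs by -0.95 (SE 0.14, limma adjusted p = 0.0408), and near-identical copies of both make the split of reads among globin genes uncertain. Neither was called when any 1 of the 3 Control libraries or LS1 replicate 2 was left out, and Hbb-bs was not called without LS1 replicate 1. The limma adjusted p then ran from 0.00256 to 0.0931 for Hba-a2 and from 0.0122 to 0.15 for Hbb-bs over the 6 fits that leave out a library. edgeR called neither gene (adjusted p = 0.0707 each). DESeq2 called both, with an adjusted p of 6.43e-09 for Hba-a2 and 1.09e-07 for Hbb-bs. voom called Hbb-bs (adjusted p = 0.0497) but not Hba-a2 (adjusted p = 0.0533). All 7 globins tested had lower means (median -0.81, and -0.39 without LS1 replicate 1).

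Levels were set side by side per kilobase of merged exons. In Control, Slc4a1 and Alas2 stood highest, at 31465 ± 5216 and 29220 ± 5627 normalized counts per kilobase (SD, n = 3 each), and their libraries overlapped. Tfrc followed at 16101 ± 2099, below both without overlap, and then Fech at 3635 ± 389, Klf1 at 3189 ± 303 and Gata1 at 2933 ± 69.6. Fech overlapped Klf1, and Klf1 overlapped Gata1. Epor was the lowest at 1416 ± 250, without overlap with Gata1. The order was the same in LS1, from 22688 ± 7615 for Slc4a1 to 1030 ± 426 for Epor, but there Alas2 overlapped Tfrc and Gata1 overlapped Epor. Per kilobase of the longest transcript, Alas2 stood above Slc4a1 and Gata1 above Klf1 in both groups. Fech has 13838 merged exon bases but 6571 in its longest transcript, so its level depends on that choice. By the longest transcript it averaged 7656 in Control, against 3189 for Klf1 and 3760 for Gata1. The same means in LS1 were 5448, 1972 and 2474.

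By correlation over all libraries, 6 of the 7 genes followed one another closely and Tfrc followed them more loosely. LS1 replicate 1 lay far below the Control mean for those 6 genes, from -0.88 for Fech to -1.36 for Epor in log2. The correlations were not computed without it. Among the Control libraries, Gata1 was highest in replicate 2 and Klf1 in replicate 3. Epor, Alas2, Fech and Slc4a1 were highest in Control replicate 1, so the 6 genes did not all move alike there. Over the 6 libraries, which were pooled for sequencing, Pearson's r of the log2 values was 0.83 to 0.96 for the 15 pairs among the 6 genes other than Tfrc, with a median of 0.93. With each group's mean taken out it was 0.69 to 0.97, with a median of 0.89. Tfrc had an r of 0.25 to 0.53 with the others, with a median of 0.36. With the group means taken out, the r of Tfrc was 0.22 to 0.69, with a median of 0.39. Its highest value, 0.687 with Gata1, then came close to the lowest among the other 6 genes, 0.694 for Klf1 and Slc4a1. As a log2 ratio, Tfrc over Klf1 was 4.09, 4.58 and 4.38 in Control and 5.38, 5.15 and 4.59 in LS1, and Tfrc over Gata1 was 3.58, 3.83 and 3.97 in Control and 4.69, 4.35 and 4.14 in LS1. Both ratios were higher in every LS1 library than in any Control library, by 0.69 and 0.60 on average (exact permutation p = 0.1 each, 0.3 after Benjamini-Hochberg adjustment over 6 ratios). The groups of Klf1 and Gata1 did not overlap to begin with and Tfrc had the smallest difference, so these 2 ratios largely restate the differences given above. The ratios of Tfrc to the other 4 genes overlapped between the groups.

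**Figure D4:**
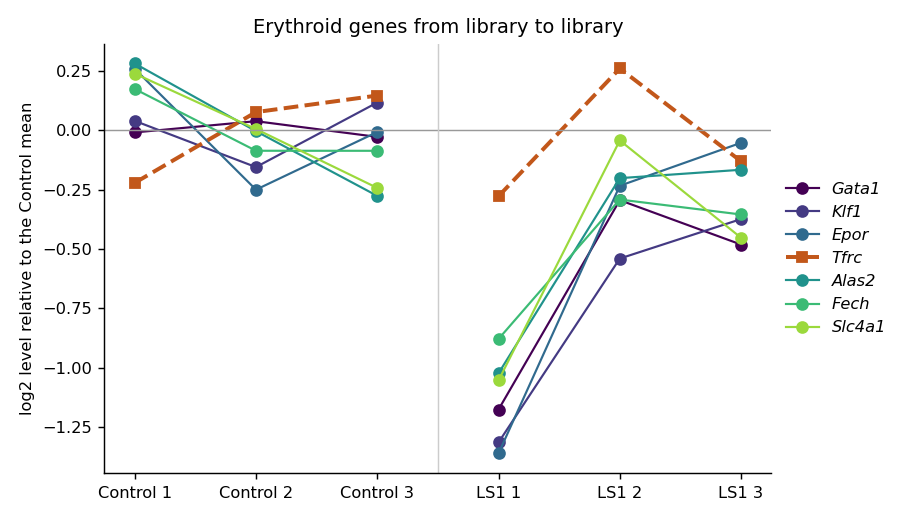
Log2 level of each erythroid gene in each library relative to its Control mean (vertical axis), with Tfrc as a dashed orange line. Lines join the values of 1 gene within a group only to guide the eye, since replicates have no order. The mean over the 7 genes was -1.01 in LS1 replicate 1, -0.19 in replicate 2 and -0.29 in replicate 3, and Tfrc was at 0.26 in LS1 replicate 2 where the 6 other genes were below 0.

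LS1 replicate 1 had the lowest value of the 6 libraries for all 7 genes, and for 26.8% of all genes tested. Without it, 6 of the 7 genes were still lower in LS1, with a median log2 difference of -0.25, where 47.4% of all genes were lower. In that fit Gata1, Klf1 and Fech, 3 of the 7, were lower at an unadjusted p under 0.05, as were 5.62% of all genes tested. Other cell types moved with that library. All 10 megakaryocyte and platelet markers were lowest there and all 10 had lower means in LS1 (median -0.59, and -0.32 without that library), and their summed normalized counts were 60693 to 78633 for Control but 34890 to 61252 for LS1. Skeletal muscle markers were lowest there for 9 of 10 genes, and all 10 were lower in LS1 (median -0.79, and -0.20 without that library), with sums of 11920 to 28800 for Control but 6134 to 16464 for LS1. Proliferation genes were lowest there for 7 of 12 genes, and all 12 were lower in LS1 (median -0.33), with sums of 273840 to 325775 for Control but 237386 to 246827 for LS1. Without that library all 12 were still lower (median -0.25). Their median relative to the Control mean was -0.40, -0.23 and -0.28 in LS1 replicates 1, 2 and 3, so this difference was not only that of replicate 1.

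The remaining lists were mixed. B cell markers were lower for 9 of 10 genes (median -0.44, sums 53506 to 57204 and 32733 to 51194). LS1 replicate 1 was the lowest library for 1 of them, although their median there was -0.39 relative to the Control mean. Endothelial markers were lower for 4 of 10 (median 0.044, sums 41156 to 44549 and 40442 to 48529), and LS1 replicate 1 was the lowest library for 5 of the 10. Chondrocyte markers were higher for 10 of 10 (median 0.54), and so were macrophage markers (median 0.23, sums 36448 to 47631 and 45471 to 51419). Neutrophil markers were higher for 8 of 10 (median 0.19, sums 421161 to 514936 and 460790 to 565398). No marker of these lists was at 0 in any library. The part of other cell types and of tissue make-up in the erythroid differences was not tested.

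**Figure D5:**
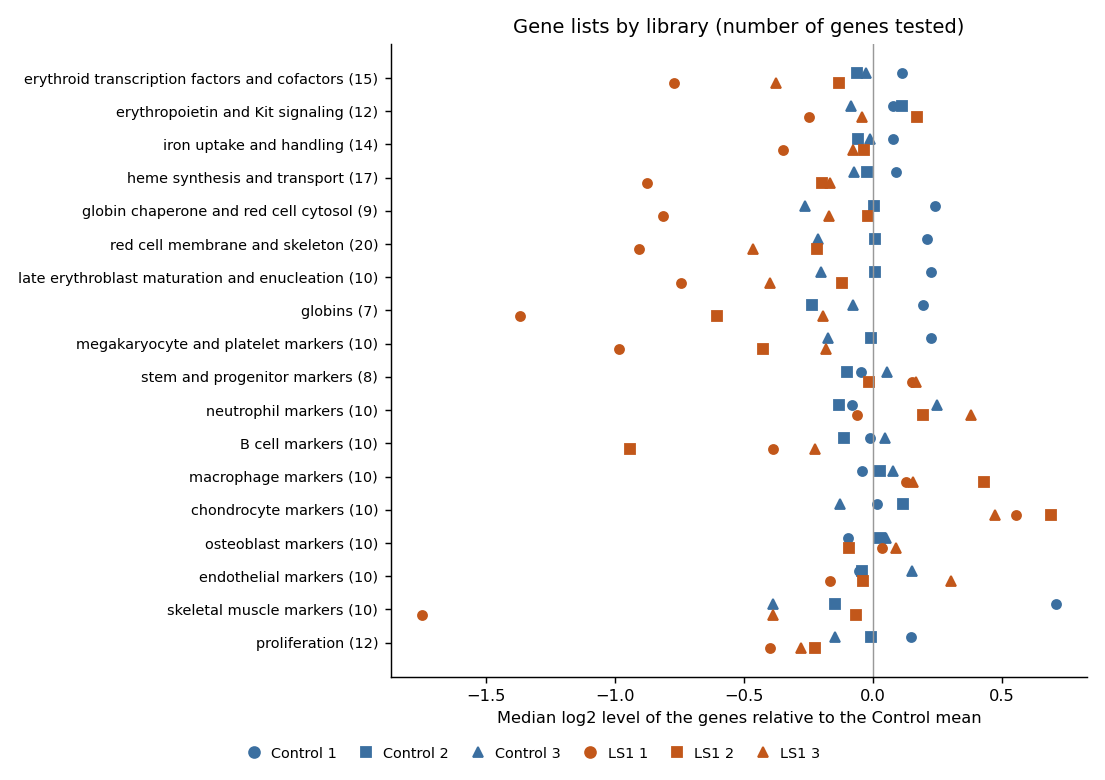
Median log2 level of each gene list in each library relative to the Control mean (horizontal axis), for Control (blue) and LS1 (orange) libraries, with the number of genes tested in brackets. LS1 replicate 1, the orange circle, lies at -0.91 for the membrane list, -0.98 for megakaryocyte markers and -1.75 for skeletal muscle markers, and chondrocyte markers lie between 0.48 and 0.69 in the 3 LS1 libraries.

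The sexes were unevenly spread over the lines. Within the libraries from females, LS1 minus Control was -0.31 for Gata1, -0.48 for Klf1, -0.24 for Epor, -0.34 for Alas2, -0.34 for Fech and -0.16 for Slc4a1 on the log2 scale. Within those from males the same differences were -0.80, -0.96, -0.70, -0.32, -0.53 and -0.51, and LS1 replicate 1 was from a male. Tfrc was 0.33 in females and -0.35 in males. Each of these comparisons has 1 library in 1 of its groups and was given no test. With the summed Y-linked level as a covariate in the limma fit, the differences of the 7 genes ran from -0.71 for Klf1 to -0.0033 for Tfrc, and that of Slc4a1 was -0.34.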

How the data were processed

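Polyadenylated RNA of 3 Control and 3 LS1 mice was sequenced. The authors mapped reads to GRCm38 (Ensembl annotation) with HISAT2 2.0.2, counted them per gene with featureCounts 1.4.6 and analysed counts with DESeq2. Whether counting used strand is not given in the sources used here. The deposited table holds a signal per gene, the read count divided by 1 size factor per library. Whole reads were recovered by dividing by the value of 1 read (0.870 to 1.11), and 100% of values came out whole within 0.01. 98.9% of identifiers had a symbol in GENCODE M21 or the gene name table. No column was left out (0 unused).

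Genes with a mean of at least 20 reads were fitted with limma 3.58.1 (R 4.3.3). The fit took log2 values after a pseudocount of 1 was added to the deposited signal, and used a trend and robust moderation. Benjamini-Hochberg adjustment had a threshold of 0.05. Fold changes on this scale understate those of low genes. Alternatives were edgeR 4.0.16, DESeq2 1.42.0 and voom on recovered reads, other scalings, pseudocounts, filters, a replicate block, a Y-linked covariate and leaving out each library. The fits were tested on simulated data. Named genes were all members, pathway genes past the threshold and the 2 lowest and 2 highest of each pathway list, the lowest and highest of each marker list, and the 10 genes most like the members. A few of them are not reported here. Alas1, Sptb, Ank1, Fth1, Ftl1 and Slc40a1 were named after their values were seen. The members and lists were chosen with earlier results of these data known. Figures were drawn with matplotlib.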

Additional observations from a re-analysis of the deposited data

How the results depend on the processing

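No member passed the adjusted threshold under any alternative tried except Klf1 without LS1 replicate 3 (0 to 1 members over the leave-one-out fits). The count of all genes called was 14, and became 7 with edgeR, 459 with DESeq2, 8 with voom, 7 without robust moderation, 45 with every gene that had a read and 9 with a mean of at least 100 reads. It ran from 5 without Control replicate 2 to 324 without LS1 replicate 3, and was 9 without Control replicate 1 and 46 without LS1 replicate 1. The list genes called were 2, and 0 to 15 over the leave-one-out fits, again 15 without LS1 replicate 3. Hbb-bs lost its call with a mean of at least 100 reads. Hba-a2 and Hbb-bs lost their calls with edgeR, without robust moderation and with the Y-linked covariate, and Hba-a2 also with voom and with the replicate block (limma adjusted p = 0.0994). The replicate block called 12 genes and 0 members. Deviations of same-numbered libraries correlated at 0.054, 0.021 and 0.224, so the numbers were not taken to pair the mice, and LS1 replicate 1 correlated best with Control replicate 2. In the levels, 6 of 14 places in the order held with the longest transcript. The shorter core GATA was in 5 member windows in place of 3. The cause of these changes was not tested.

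Directions turned for the genes named here, none of which passed the threshold. With the Y-linked covariate, Nt5c3 became 0.015, Bnip3l 0.0058, Mxi1 0.024 and Bub1 0.042. With upper-quartile scaling Gata2 became -0.0088 and Cd79a -0.031, and with voom Cd79a became -0.0057. Over the leave-one-out fits, Tfrc ran from -0.20 to 0.064, Gata2 from -0.040 to 0.12, Cish from -0.0014 to 0.49, Nt5c3 from -0.30 to 0.083, Cat from -0.068 to 0.21, Cd47 from -0.096 to 0.031, Bnip3l from -0.085 to 0.10, Mxi1 from -0.077 to 0.035, Hbq1b from -0.72 to 0.19, Retnlg from -0.32 to 0.16, Cd79a from -0.14 to 0.18, Csf1r from -0.041 to 0.26 and Bub1 from -0.11 to 0.11. Of the other values of single genes and lists, 1244 kept direction and side of the threshold, 18 lost a call and 17 gained one.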

Other observations

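The genes whose levels followed the erythroid members most closely were listed by Pearson's r with the mean member profile over the 6 libraries, among 2434 genes with a mean of at least 100 normalized counts and a spread at least that of the profile. The 10 closest had an r of 0.983 to 0.997. The profile stood at -1.01 in LS1 replicate 1 and between -0.29 and 0.11 in the other libraries, relative to the Control mean. A high r can thus come from a low value in that library, and r was not computed without it. They were Trmo, the calcium channel gene Cacna1g, the cyclin gene Ccne1, the platelet tubulin gene Tubb1, Rfx2, the fast muscle myosin gene Myh4, Samd11, the heme enzyme gene Ppox, Mylk3 and the erythroblast tetraspanin gene Tspan33. Tspan33 averaged 11381 ± 894 normalized counts in Control and 7308 ± 2356 in LS1 (SD, n = 3 each), a log2 difference of -0.70 (SE 0.22, limma adjusted p = 0.271). Ccne1 averaged 9453 ± 1129 and 6683 ± 1855, a difference of -0.54 (SE 0.20, limma adjusted p = 0.311). The list holds a muscle gene and a platelet gene beside red cell genes, and their libraries are those of the members.

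Among the markers of other cells, genes at the ends of the lists were as follows. For megakaryocytes and platelets, Treml1 differed by -0.94 (SE 0.30) and Pf4 by -0.28 (SE 0.25). For B cells, Cd79a differed by 0.0067 (SE 0.16), and for skeletal muscle, Mb by -1.38 (SE 0.30) and Tnni2 by -0.32 (SE 0.21). Siglec1 of macrophages differed by 0.94 (SE 0.31) and Csf1r by 0.087 (SE 0.18), while Elane of neutrophils differed by 0.42 (SE 0.16) and Retnlg by -0.080 (SE 0.23). Hapln1 of cartilage differed by 0.94 (SE 0.20) and Comp by 0.19 (SE 0.17). Bglap and Runx2 of osteoblasts differed by -1.10 (SE 0.42) and 0.59 (SE 0.14), and Flt3 of progenitors by 0.43 (SE 0.27). In the endothelial list, Vwf, which is also in the megakaryocyte and platelet list, differed by -0.64 (SE 0.19) and Tek by 0.38 (SE 0.14). Over the lists of these cells, 6 of 10 osteoblast, 6 of 10 endothelial and 5 of 8 progenitor markers were higher in LS1. Mki67 and Bub1 of dividing cells differed by -0.48 (SE 0.13) and -0.019 (SE 0.15), and neither passed the adjusted threshold with limma, nor did the genes named above. DESeq2 called Mb (adjusted p = 0.000573), Hapln1 (0.00212), Mki67 (0.0275), Runx2 (0.0282), Siglec1 (0.0405) and Bglap (0.0448), but not the others. Of the red cell lists, DESeq2 called 2 of 7 globins, 1 of 9 cytosol genes, 1 of 15 transcription factors and cofactors, and 1 of 14 iron genes. It also called 1 of the 20 membrane and skeleton genes, and all these calls were lower in LS1. It called 0 of 17 heme, 0 of 10 late maturation and 0 of 12 erythropoietin and Kit signaling genes. Beside these, it called 5 of the 10 chondrocyte markers, all higher in LS1. DESeq2 calls were thus not particular to red cell genes. All 12 interferon-stimulated genes had higher means in LS1, with a median log2 difference of 1.57, from 0.57 (SE 0.30) for Rsad2 to 2.34 (SE 1.22) for Ifit1. Their median relative to the Control mean was 1.85, 3.01 and 0.052 in LS1 replicates 1, 2 and 3, so replicate 3 lay near the Control libraries. limma called 0 of the 12, with 3 at an unadjusted p under 0.05, and DESeq2 called 3. Of the globins, Hbb-bh1, an embryonic gene with 34.7 ± 18 normalized counts in Control and 8.81 ± 1.94 in LS1, differed by -1.77 (SE 0.51, limma adjusted p = 0.236), Hbb-y by -0.32 (SE 0.45) and Hbq1b by -0.33 (SE 0.40).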
